A study of Sus scrofa with 12 samples.

Results

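The miR-424, miR-503, miR-450 and miR-542 cluster is a group of X-linked miRNAs, and its expression was followed here in boar testes of 2 breeds at 2 ages. Its members were taken by name: every listed miRNA called miR-322, miR-424, miR-503, miR-450 or miR-542, with any letter or arm. This gave 20 of the 1452 miRNAs listed, of which 10 are exist miRNAs (pig miRNAs, with the prefix ssc) and 10 are known miRNAs (names without a species). The names of the known members end in -x, -y or -z, and the sources used here do not define these endings. The rule itself uses names only and no measured value.

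The testes came from castrated Hezuo (HZ) and Landrace (LC) boars, with 3 small RNA libraries in each of 4 groups: HZ boars aged 30 days (Ha), HZ boars aged 120 days (Hb), LC boars aged 30 days (La) and LC boars aged 120 days (Lb). The HZ pig is a Chinese native breed that matures early, and the LC boars were the comparison breed. No treatment or genotype separates the groups beyond breed and age. According to the methods the RNA was taken from pooled samples, and it is not settled whether each library represents 1 boar. p-values therefore measure only the spread between these libraries.

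A miRNA is cut from a hairpin precursor, and either arm of the hairpin (5p or 3p) can be loaded into the silencing complex. Bases 2 to 8 of the mature miRNA, the seed, do most of the pairing with target mRNAs, so miRNAs with the same seed share many predicted targets. In mammals the hairpins of miR-424, miR-503, miR-542 and miR-450 lie close together on the X chromosome and are thought to be made from a common primary transcript. miR-424 is called miR-322 in rodents. miR-424 and miR-503 are relatives of the miR-15 and miR-16 family and are known for slowing entry into the cell cycle.

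The mature sequences below are those listed with the counts, 5′ to 3′, with the seed in capitals. They are shown because the results turn on these members, and because the close likeness of some of them decides where a tag can be counted.
ssc-miR-450b-5p: tTTTGCAAtatgttcctgaata
ssc-miR-450c-5p: tTTTGCGAtgtgttcctaatac
ssc-miR-450a: tTTTGCGAtgtgttcctaatat
ssc-miR-424-5p: cAGCAGCAattcatgttttgaa
ssc-miR-503: tAGCAGCGggaacagtactgcag
miR-503-x: tAGCAGCGggaacagtaaa
ssc-miR-542-3p: tGTGACAGattgataactgaaa

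The 20 members hold 11 different seeds. ssc-miR-450c-5p and ssc-miR-450a share their seed and their first 21 bases and differ by 1 edit, at the last base. ssc-miR-450b-5p has a different seed and is 4 edits from ssc-miR-450a. The seed of ssc-miR-424-5p, AGCAGCA, is also that of 12 listed miRNAs outside the cluster, all with names of the miR-15, miR-16, miR-195, miR-497 or miR-457 kind. ssc-miR-503 has the seed AGCAGCG, which miR-6519-z and 1 predicted miRNA share outside the cluster. Of the 10 known members, 8 share at least 17 first bases with a pig member and differ from it only towards the 3′ end. miR-503-x is listed with exactly the sequence of miR-6519-z, although the counts of these 2 entries differ.

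In the RefSeq annotation of Sscrofa11.1, 4 genes of the cluster were found by name, and they hold 7 of the members. MIR450B lies at chrX:110381587-110381666, MIR450A at chrX:110381746-110381851, MIR450C at chrX:110381891-110381971 and MIR542 at chrX:110382597-110382676. The 4 genes span 1090 bases between the protein-coding genes HPRT1 (chrX:110321144-110357902) and PLAC1 (chrX:110403257-110592117) and overlap neither of them. miR-424 and miR-503 have no entry under their names in the table used. A hairpin predicted by the authors with miRDeep2, at chrX:110387911-110387972, lies 5235 bases past the end of MIR542. Its sequence holds the reverse complement of ssc-miR-424-5p at positions 37 to 58 and of ssc-miR-424-3p at positions 1 to 21, counted from the 5′ end of the hairpin, so it is the strand opposite to miR-424. This opposite strand had 12 counts in all, spread over 6 libraries, and at most 0.265 TPM.

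**Figure D1:**
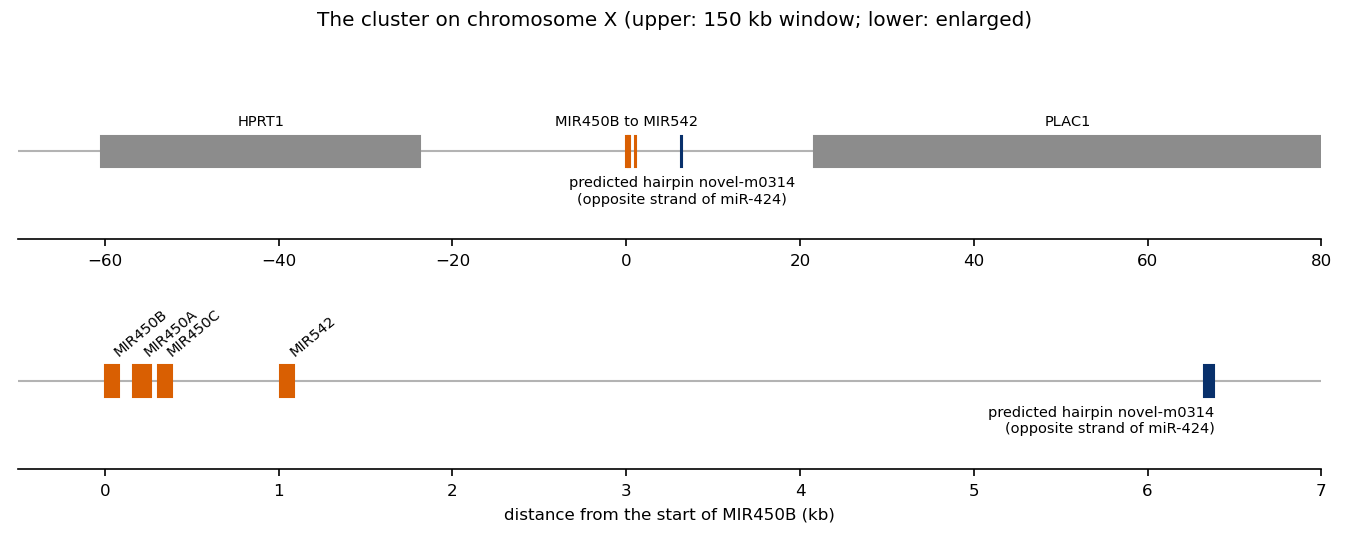
The cluster on the X chromosome, with distance from the start of MIR450B in kb on the horizontal axis (upper, the neighbouring genes; lower, an enlarged view). Orange boxes are the 4 annotated miRNA genes, which span 1090 bases, grey boxes are protein-coding genes, and the blue box is the predicted hairpin on the opposite strand of miR-424, 5235 bases past MIR542.

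The libraries held between 6520197 and 16874633 counts on listed miRNAs. Levels are given as the TPM deposited by the authors, in which each count is scaled to the total of its library. The level of 3 counts, used as a floor, lay between 0.158 and 0.404 TPM. It covers counting error only, because PCR copies of a molecule were not marked and cannot be separated. Of the 20 members, 11 had a mean of at least 10 TPM over the 12 libraries and 19 were counted in every library. The exist members took 98.3% of all counts on the cluster. The 5 miR-202 entries, which mark the gonad and serve as a check of the testis label, summed to between 9608 and 24405 TPM in the libraries.

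The cluster as a whole was highest in the young HZ testes and lowest in the 120-day HZ testes. Its members summed to 9905, 8733 and 10881 TPM in Ha and to 3791, 2077 and 3561 TPM in Hb. In the LC boars they summed to 9663, 6768 and 6876 TPM in La and to 6603, 6196 and 7231 TPM in Lb. Every Hb library lay below every library of the other groups, while La and Lb overlapped. The means were 9840 ± 1075 (Ha) and 3143 ± 930 TPM (Hb) in the HZ boars and 7769 ± 1641 (La) and 6677 ± 521 TPM (Lb) in the LC boars (SD, n = 3), so the sum was 3.13 times higher in Ha than in Hb and 1.16 times higher in La than in Lb. As a share of all listed counts, the cluster made up 1.11% (Ha) and 0.358% (Hb) in the HZ boars and 0.871% (La) and 0.767% (Lb) in the LC boars. In bulk tissue, fewer cells of a type and less RNA per cell cannot be told apart.

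**Figure D2:**
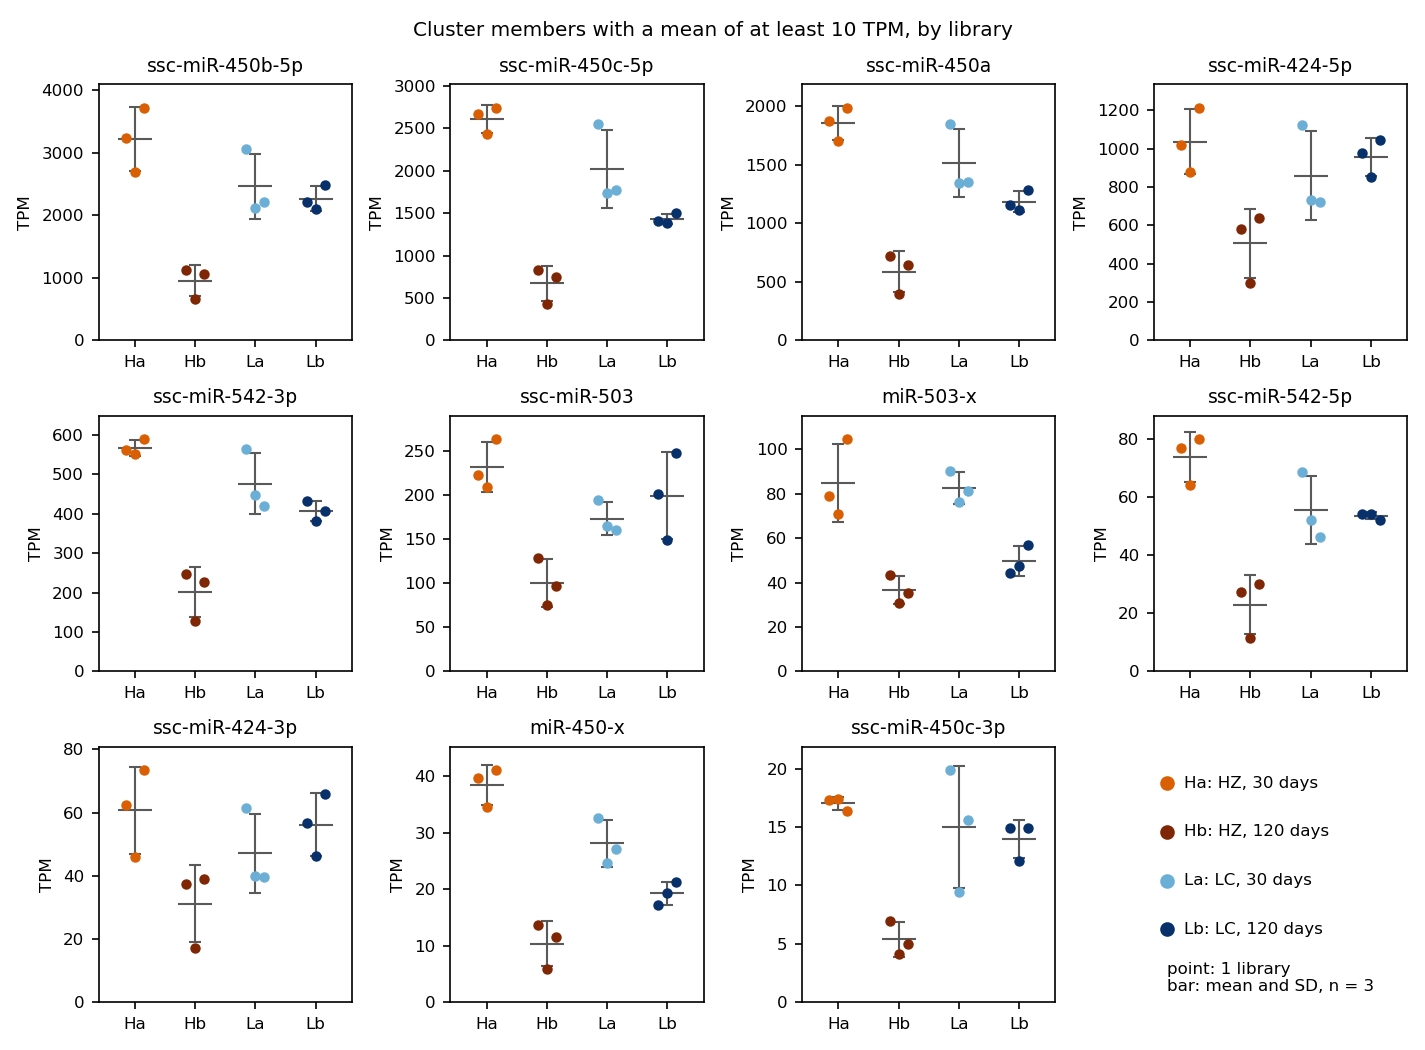
Level of the 11 members with a mean of at least 10 TPM, in TPM on a linear axis from 0, for the 3 libraries of each group (points), with mean and SD. In each of the 11 panels the 3 Hb libraries lie below the 3 Ha libraries, and Hb replicate 2 is the lowest point. Hb replicate 2 also had the lowest TMM factor of the 12 libraries, 0.694, which TPM does not take into account. How many other miRNAs share these patterns was not counted.

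The age comparison in the HZ boars (Ha vs. Hb) asks which members changed as the early-maturing breed passed from the immature to the mature testis. Of the 20 members, 16 fell, with an adjusted p under 0.05 (edgeR quasi-likelihood test, Benjamini-Hochberg over all miRNAs tested), and none rose. Over all 1441 miRNAs tested, 13.0% fell by the same rule. All 20 members had a negative log2 fold change (miR-322-x turned to 0.02 without Ha replicate 3), with a median of -1.49 against 0.32 over all miRNAs tested. At the thresholds of the study (absolute log2 fold change above 1 and unadjusted p under 0.05), 15 members fell, against 14.4% of all miRNAs. The call of 10 of the 16 held under every alternative in which they were tested: ssc-miR-450b-5p, ssc-miR-450c-5p, ssc-miR-450a, ssc-miR-542-3p, ssc-miR-542-5p, ssc-miR-503, ssc-miR-450c-3p, ssc-miR-450b-3p, miR-450-x and miR-542-y. Without Ha replicate 3 the count was 10, against 9.26% of all miRNAs that fell in that fit, and without Ha replicate 1 it was 12, against 8.58%.

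ssc-miR-450b-5p, the 5p arm of the hairpin MIR450B, was the most abundant member. It stood at 3244, 2693 and 3722 TPM in Ha and at 1122, 668 and 1069 TPM in Hb. The HZ ages did not overlap, and the log2 fold change was -1.66 (SE 0.24, adjusted p = 0.000159 by edgeR). In the LC boars it stood at 3069, 2118 and 2209 TPM in La and at 2209, 2099 and 2492 TPM in Lb. These ages overlapped, and the log2 fold change of -0.29 (SE 0.13) had an adjusted p of 0.093 by edgeR.

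ssc-miR-450c-5p, the 5p arm of the hairpin next to MIR450A, had the largest fitted fall among the members of at least 10 TPM in the HZ boars. Its levels were 2664, 2430 and 2743 TPM in Ha and 834, 432 and 747 TPM in Hb. The fall of 1.88 on the log2 scale (SE 0.24) had an adjusted p of 5.49e-05 by edgeR. In the LC boars it was at 2547, 1737 and 1776 TPM in La and at 1404, 1385 and 1504 TPM in Lb. All La libraries lay above all Lb libraries, and the log2 fold change was -0.67 (SE 0.13, adjusted p = 0.00143 by edgeR). ssc-miR-450c-5p therefore passed the test in both breeds.

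ssc-miR-450a, which differs from ssc-miR-450c-5p in its last base, was also lower at 120 days in both breeds. It was measured at 1873, 1697 and 1985 TPM in Ha and at 724, 394 and 642 TPM in Hb, with a log2 fold change of -1.57 (SE 0.23, adjusted p = 0.000206 by edgeR). In La it was at 1847, 1339 and 1350 TPM and in Lb at 1154, 1115 and 1285 TPM. The LC difference of -0.53 on the log2 scale (SE 0.12) had an adjusted p of 0.00495 by edgeR and was called in 14 of 15 alternatives, the exception being scaling by library size only. Since 1 base separates the 2 sequences, tags that lack or change the last base could be counted in either entry. With the members within 2 edits summed, the merged entry of ssc-miR-450c-5p, ssc-miR-450a and miR-450-x had log2 fold changes of -1.75 in the HZ boars and -0.60 in the LC boars, both with an adjusted p under 0.05 by edgeR.

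ssc-miR-424-5p, a relative of the miR-15 and miR-16 family by its seed, moved with age in the HZ boars by a smaller amount. It was at 1018, 877 and 1213 TPM in Ha and at 582, 301 and 638 TPM in Hb, and the log2 fold change was -0.95 (SE 0.26, adjusted p = 0.0125 by edgeR). The HZ ages did not overlap, but the call was lost without Ha replicate 1 (adjusted p = 0.0563 by edgeR) and without Ha replicate 3 (adjusted p = 0.0635). In La it was at 1126, 730 and 721 TPM and in Lb at 975, 851 and 1045 TPM. The LC ages overlapped, with a log2 fold change of -0.02 (SE 0.15) whose sign turned under 5 of 16 alternatives.

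ssc-miR-503, which has a seed 1 base different from that of miR-424, was at 222.9, 209 and 264 TPM in Ha and at 129, 74.9 and 96.7 TPM in Hb. The HZ ages did not overlap, and the log2 fold change was -1.12 (SE 0.25, adjusted p = 0.00385 by edgeR). In La it was at 194.8, 165 and 160 TPM and in Lb at 201.5, 149 and 247 TPM. The LC libraries overlapped, and the log2 fold change was 0.02 (SE 0.16, adjusted p = 0.935 by edgeR).

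ssc-miR-542-3p, the more abundant arm of the hairpin MIR542, was at 561, 551 and 590 TPM in Ha and at 248, 128 and 228 TPM in Hb. It fell in the HZ boars, with a log2 fold change of -1.42 (SE 0.25, adjusted p = 0.000681 by edgeR). In the LC boars it was at 563, 446 and 418 TPM in La and at 431, 382 and 406 TPM in Lb. The groups overlapped on the TPM scale. The log2 fold change on the TMM-scaled counts was -0.40 (SE 0.11, adjusted p = 0.0135 by edgeR), a call that was lost with library size only, with the TPM total as library size and without La replicate 1 (adjusted p = 0.0632). Its partner ssc-miR-542-5p had 76.9, 63.9 and 79.9 TPM in Ha and 27.2, 11.4 and 30.1 TPM in Hb, with a log2 fold change of -1.62 (SE 0.32, adjusted p = 0.00162 by edgeR). At the LC ages ssc-miR-542-5p was at 68.4, 51.9 and 46.1 TPM in La and at 54.1, 54.2 and 52.0 TPM in Lb, and these groups overlapped.

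The 3p arms of the other hairpins were rarer, and their lowest group was also Hb. ssc-miR-424-3p was at 62.5, 46.0 and 73.5 TPM in Ha and 37.4, 17.2 and 38.9 TPM in Hb, with a log2 fold change of -0.89 (SE 0.31, adjusted p = 0.042 by edgeR). This call was kept in 10 of 16 alternatives and was lost with library size only, with the TPM total as library size, and without any 1 of the 3 Ha replicates or Hb replicate 1. In La it was at 61.4, 40.1 and 39.7 TPM and in Lb at 56.7, 46.1 and 65.8 TPM, and the groups overlapped. ssc-miR-450c-3p was at 17.3, 17.4 and 16.4 TPM in Ha and 7.004, 4.14 and 5.02 TPM in Hb. Its LC levels were 19.9, 9.48 and 15.6 TPM at 30 days and 14.9, 12.1 and 14.96 TPM at 120 days, with overlap. It fell in the HZ boars by 1.56 on the log2 scale (SE 0.33, adjusted p = 0.00235 by edgeR). ssc-miR-450b-3p ranged from 1.89 to 10.7 TPM and fell in the HZ boars as well, with a log2 fold change of -1.60 (SE 0.39, adjusted p = 0.00677 by edgeR).

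The 2 known members above 10 TPM, miR-503-x and miR-450-x, fell in both breeds. miR-450-x, which shares its first 21 bases with ssc-miR-450a, was at 39.7, 34.5 and 41.1 TPM in Ha and 13.7, 5.89 and 11.6 TPM in Hb, a log2 fold change of -1.82 (SE 0.31, adjusted p = 0.000633 by edgeR). It was at 32.6, 24.6 and 27.0 TPM in La and 17.2, 19.3 and 21.3 TPM in Lb, a log2 fold change of -0.72 (SE 0.18, adjusted p = 0.00726). Neither age comparison of miR-450-x overlapped.

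miR-503-x, the entry that shares its listed sequence with miR-6519-z, was at 79.2, 70.9 and 105 TPM in Ha and at 43.5, 31.0 and 35.1 TPM in Hb. The LC levels went from 90.5, 76.5 and 81.1 TPM (La) to 44.5, 47.3 and 57.2 TPM (Lb). The ages did not overlap in either breed. The log2 fold change was -1.10 in the HZ boars (SE 0.29, adjusted p = 0.00938 by edgeR) and -0.91 in the LC boars (SE 0.15, adjusted p = 0.000414). The HZ call was lost when the 2 entries with this sequence were summed (log2 fold change -0.54, adjusted p = 0.147) and without Ha replicate 3 (adjusted p = 0.0566). Because the 2 entries cannot be told apart by sequence, the level of miR-503-x is uncertain. miR-6519-z itself had a log2 fold change of 0.18 in the HZ boars (adjusted p = 0.675) and of -1.27 in the LC boars (adjusted p = 0.000227).

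The other 9 members had means over the 12 libraries of 0.609 to 9.12 TPM. Besides ssc-miR-450b-3p, the members among these 9 that fell in the HZ boars were miR-542-y (log2 fold change -1.82), miR-424-x (-1.11), miR-424-y (-1.21) and miR-450-z. miR-424-x and miR-424-y were called in 8 and 6 of 15 alternatives. miR-450-z had 4, 8 and 24 counts in Ha and 1, 0 and 1 counts in Hb, and no fold is given for it because its Hb counts lie under the floor. Its call was lost without Ha replicate 3 (adjusted p = 0.135 by edgeR). miR-542-x had 32, 26 and 36 counts in Ha and 18, 2 and 3 counts in Hb, and its log2 fold change of -1.59 missed the threshold (adjusted p = 0.0523 by edgeR). Without Hb replicate 1 miR-542-x passed (adjusted p = 0.000952 by edgeR). No fold is given for that fit, because the remaining Hb counts of 2 and 3 lie at or under the floor. miR-322-x, miR-322-y and miR-450-y had log2 fold changes between -0.56 and -0.26 in the HZ boars and did not pass. In the LC boars none of these 9 members passed the test.

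In the LC age comparison (La vs. Lb), 5 of the 20 members fell at an adjusted p under 0.05 and none rose, against 13.4% of the 1446 miRNAs tested that fell. The 5 were ssc-miR-450c-5p, ssc-miR-450a, ssc-miR-542-3p, miR-503-x and miR-450-x, and 3 of them (ssc-miR-450c-5p, miR-503-x and miR-450-x) were called under every alternative in which they were tested. At the thresholds of the study no member fell, against 5.81% of all miRNAs, and 6 members had an unadjusted p under 0.05, all lower in Lb, against 15.9% of all miRNAs. DESeq2 called 5 members, against 12.7% of all miRNAs that fell by it. The log2 fold change was negative for 13 members, with a median of -0.19 against 0.32 over all miRNAs tested. With library size as the only scaling, the median of all miRNAs moved to 0.54 and that of the members to 0.02, a distance of -0.51 in both cases. The direction of the median LC member therefore turned with the scaling, and its distance from the median miRNA did not.

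**Figure D3:**
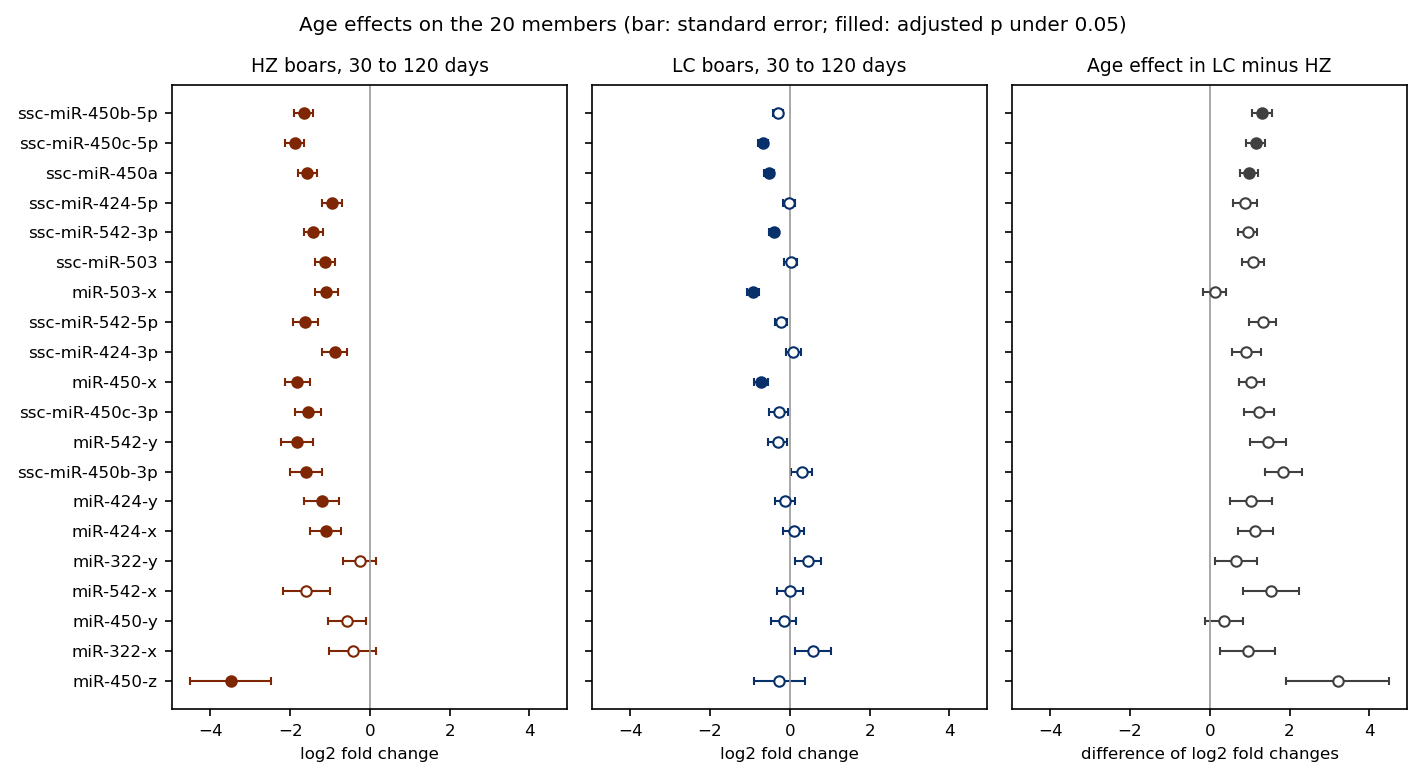
Log2 fold change from 30 to 120 days for the 20 members in HZ boars (left) and LC boars (middle), and the difference between the breeds (right), all on the same horizontal scale with standard errors and with filled points for an adjusted p under 0.05. In the HZ boars 16 points are filled and all 20 lie left of 0, in the LC boars 5 are filled, and in the right panel 3 are filled and all 20 lie right of 0.

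The breeds were compared at each age. At 30 days (Ha vs. La) no member was called at an adjusted p under 0.05 by edgeR or by DESeq2, where 6.34% of the 1278 miRNAs tested were lower in La. An unadjusted p under 0.05 was found for 5 members by edgeR and 2 by DESeq2, all lower in La, against 13.3% and 10.6% of all miRNAs. At the thresholds of the study 1 member was lower in La, against 5.71% of all miRNAs. This was miR-322-x, with 11, 7 and 20 counts in Ha and 6, 6 and 8 in La. The log2 fold change was negative for 18 members, with a median of -0.29 against -0.01. ssc-miR-450b-5p was -0.30 (SE 0.14, adjusted p = 0.192 by edgeR) and ssc-miR-503 was -0.33 (SE 0.12, adjusted p = 0.1). ssc-miR-503 passed with library size only (adjusted p = 0.0416 by edgeR) and with the TPM total as library size (adjusted p = 0.048), and ssc-miR-450c-5p passed without La replicate 1 (adjusted p = 0.021).

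At 120 days (Hb vs. Lb) the members were higher in the LC boars in 19 of 20 cases (miR-503-x and miR-322-y turned sign under some alternatives), but none passed the adjusted test of edgeR, where 1.11% of the 1444 miRNAs tested were higher in Lb. An unadjusted p under 0.05 was found for 11 members, all higher in Lb, against 10.4% of all miRNAs. DESeq2 called 7 after adjustment, against 3.25% of all miRNAs, and the edgeR fit over all 12 libraries called 10, against 5.58%, so the background rose with these settings as well. At the thresholds of the study 4 members were higher in Lb, against 8.45% of all miRNAs. These were ssc-miR-450c-3p, ssc-miR-450b-3p, miR-542-y and miR-542-x. The median log2 fold change of the members was 0.72, and 0.69 with miR-450-z set at the floor of 3 counts per library, against 0.06 over all miRNAs. ssc-miR-450b-5p was closest to the threshold, with a log2 fold change of 0.96 (SE 0.25, adjusted p = 0.0539 by edgeR), and over its 16 alternatives the adjusted p lay between 0.00344 and 0.195. Without Hb replicate 1, 3 members were called, against 4.43% of all miRNAs, and without Hb replicate 2 also 3, against 1.18%. Library Hb replicate 2 was the lowest of the Hb libraries in 17 of the 20 members and had the lowest TMM factor of the 12 libraries, 0.694. How many other miRNAs were lowest in it was not counted.

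Whether the age effect differed between the breeds was tested as an interaction over the 12 libraries, coded as the LC effect minus the HZ effect. It was positive for all 20 members (miR-503-x turned to -0.57 with identical sequences merged and to -0.05 without Ha replicate 3), with a median of 1.06 against 0.09 over all miRNAs. At an adjusted p under 0.05, 3 members were called, all positive, where 0.758% of the 1452 miRNAs tested were. These were ssc-miR-450b-5p at 1.31 (SE 0.25, adjusted p = 0.0324 by edgeR), ssc-miR-450c-5p at 1.15 (SE 0.24, adjusted p = 0.0355) and ssc-miR-450a at 0.988 (SE 0.23, adjusted p = 0.0476). At the thresholds of the study 11 members were positive, against 11.2% of all miRNAs, and DESeq2 called 10 after adjustment, against 4.68%. ssc-miR-424-5p was at 0.87 (SE 0.30, adjusted p = 0.111 by edgeR), ssc-miR-503 at 1.08 (SE 0.28, adjusted p = 0.0547) and ssc-miR-542-3p at 0.95 (SE 0.24, adjusted p = 0.0547). None of these 3 calls was kept under every alternative: ssc-miR-450b-5p and ssc-miR-450c-5p were called in 13 of 21 each and ssc-miR-450a in 5 of 20. No member was called without Ha replicate 1, where 0.207% of all miRNAs were. Neither a member nor any other miRNA was called as positive without Ha replicate 2, La replicate 2, La replicate 3, Lb replicate 1 or Lb replicate 3. In contrast, 11 were called without Hb replicate 1 (6.61% of all miRNAs), 7 without Hb replicate 2 (1.1%), 4 without Lb replicate 2 (1.79%), 3 without Hb replicate 3 (0.482%), 2 without Ha replicate 3 (1.1%) and 2 without La replicate 1 (0.138%).

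Whether the members moved together was described by the root mean square difference between log2(TPM + 1) profiles over the 12 libraries, each centred on its own mean. Between the 11 members of at least 10 TPM the median difference was 0.288 over 55 pairs, with a range from 0.0921 to 0.472. Between members and the 426 other miRNAs of at least 10 TPM it was 0.670, and between pairs of those others 0.778. Each member was then set against the sum of the other 19 members, with itself left out. ssc-miR-450a differed from that sum by 0.0702, ssc-miR-542-3p by 0.0969, ssc-miR-450b-5p by 0.102 and ssc-miR-450c-5p by 0.204, and no outside miRNA was closer to the same sums. ssc-miR-503 differed by 0.271, ssc-miR-424-5p by 0.305, miR-503-x by 0.321 and ssc-miR-424-3p by 0.327, with 6, 10, 17 and 17 of the 426 outside miRNAs closer. The miR-450 hairpins hold most of the counts of the cluster, so each such sum is weighted towards them. The points share libraries and depth, and near-identical members can share tags.

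The miRNAs outside the cluster with the profiles most similar to the sum of all 20 members were miR-202-y at 0.240, ssc-miR-130b-5p at 0.257, ssc-miR-106a at 0.260, miR-23-y at 0.261 and ssc-miR-455-5p at 0.264. This list is not stable, since 1 of the 5 was shared with the list at a pseudocount of 10 or without Hb replicate 1, and 3 without Ha replicate 3 or Hb replicate 2. ssc-miR-106a and ssc-miR-363, the next in order at 0.268, come from the genes MIR106A (chrX:110114388-110114468) and MIR363-1 (chrX:110113552-110113631), another X-linked miRNA group. ssc-miR-106a had means of 20.4 (Ha), 8.19 (Hb), 14.2 (La) and 13.8 TPM (Lb), and its log2 fold change was -1.20 in the HZ boars (SE 0.35, adjusted p = 0.0158 by edgeR) and -0.22 in the LC boars (SE 0.21, adjusted p = 0.443).

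Within the cluster, the balance between some of the hairpins was not the same at the 2 ages. The ratio of counts of ssc-miR-424-5p to ssc-miR-450b-5p was 0.322 ± 0.00697 (SD, n = 3) in Ha and 0.522 ± 0.0729 in Hb, and 0.346 ± 0.0204 in La and 0.422 ± 0.0180 in Lb. All 120-day libraries were above all 30-day libraries. miR-424 took 11.3% of the cluster's counts in Ha and 17.1% in Hb, and 11.7% in La and 15.3% in Lb. The miR-450a and miR-450c entries together went from 46.1% to 40.5% in the HZ boars and from 46.0% to 39.7% in the LC boars. The share of miR-450b went from 32.7% to 30.7% in the HZ boars and, the other way, from 31.8% to 34.1% in the LC boars. That of miR-542 was 6.71% and 7.21% in the HZ boars and 7.05% and 7.10% in the LC boars. A ratio within a library does not depend on the scaling between libraries. As 3 libraries against 3 cannot give an exact p below 0.1, these ratios are given as a description.

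The ratio of ssc-miR-450c-5p to ssc-miR-450a, the pair that differs in the last base, went from 1.41 ± 0.0264 (Ha) to 1.14 ± 0.0348 (Hb) in the HZ boars and from 1.33 ± 0.0432 (La) to 1.21 ± 0.0366 (Lb) in the LC boars (SD, n = 3). It was lower at 120 days in every library of both breeds than in any library at 30 days. The ratio of ssc-miR-503 to ssc-miR-450b-5p was 0.0724 in Ha and 0.106 in Hb without overlap, and 0.0713 in La and 0.0872 in Lb with overlap. The ratio of ssc-miR-503 to ssc-miR-424-5p was 0.225, 0.207, 0.207 and 0.206 in Ha, Hb, La and Lb, with overlap in all 4 comparisons. Between the arms of a hairpin, ssc-miR-424-5p had 17.3, 16.5, 18.2 and 17.2 counts per count of ssc-miR-424-3p in the same order, with overlap in all 4 comparisons. The ratio of ssc-miR-542-3p to ssc-miR-542-5p was 7.77, 9.28, 8.63 and 7.61, and that of ssc-miR-450b-5p to ssc-miR-450b-3p was 399, 416, 439 and 311, both without overlap of the LC ages. The ratio of ssc-miR-450c-5p to ssc-miR-450c-3p was 154 and 124 in the HZ boars and 141.7 and 103 in the LC boars, and its ages overlapped in both breeds. For miR-503-x to ssc-miR-503 the ratio was 0.364 (Ha) and 0.371 (Hb) in the HZ boars and 0.478 (La) and 0.256 (Lb) in the LC boars, and the LC ages did not overlap.

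**Figure D4:**
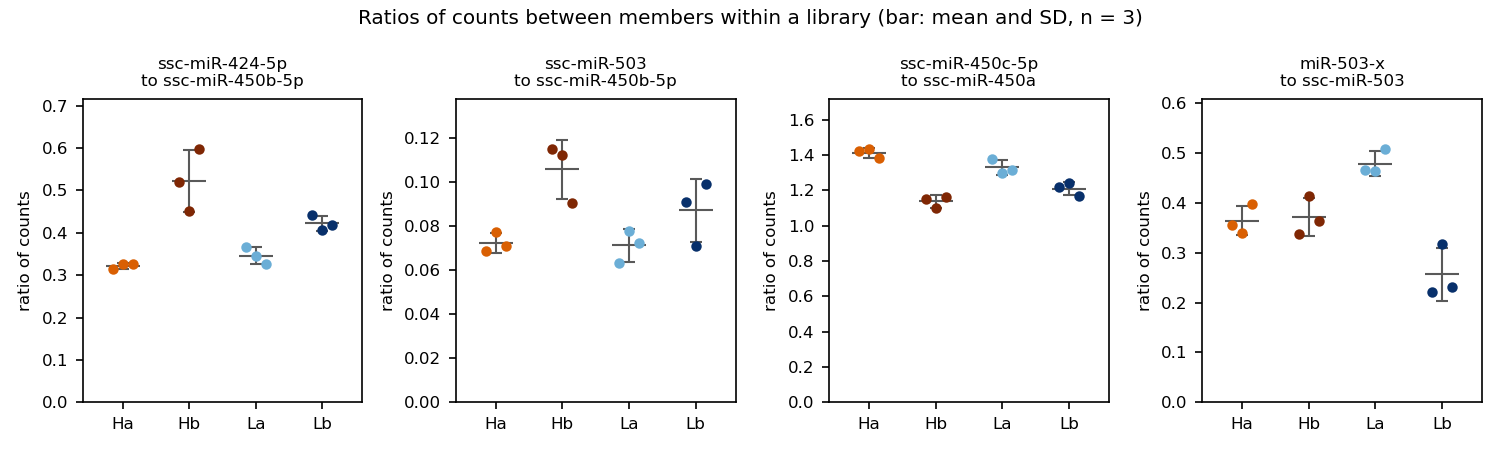
Ratio of counts between 2 members within a library, on a linear axis from 0, for the 3 libraries of each group (points) with mean and SD. The ratio of ssc-miR-424-5p to ssc-miR-450b-5p is higher and that of ssc-miR-450c-5p to ssc-miR-450a is lower at 120 days in both breeds, without overlap of the ages.

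The relatives of miR-424 by seed were read from the same tests. Of the 12 listed miRNAs outside the cluster with the seed AGCAGCA, 5 rose at an adjusted p under 0.05 in Ha vs. Hb, where 21.3% of all miRNAs tested rose. These 5 were ssc-miR-195, miR-195-x, ssc-miR-497, miR-497-x and miR-16-x, so 4 of them are miR-195 and miR-497 with their sequence variants, while ssc-miR-16, ssc-miR-15b, ssc-miR-15a and miR-15-x did not pass. In La vs. Lb 5 rose, where 26.8% of all miRNAs rose, and 1 fell. ssc-miR-497 rose in the HZ boars by 2.15 on the log2 scale (SE 0.32, adjusted p = 0.000179 by edgeR) and in the LC boars by 1.02 (SE 0.12, adjusted p = 3.02e-05). ssc-miR-195, which shares a locus with miR-497 in mammals, rose by 1.65 and by 1.03. The most abundant relative, ssc-miR-16, had means of 1932 TPM in Ha and 2668 TPM in Hb (log2 fold change 0.53, adjusted p = 0.0913 by edgeR). The relative that fell in the LC boars was ssc-miR-15b, at -0.45 (SE 0.14, adjusted p = 0.0187).

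Among the 33 other exist miRNAs whose name matched a single gene on the X chromosome, 6 fell and 2 rose in Ha vs. Hb, where 13.0% of all miRNAs fell and 21.3% rose. Their median log2 fold change was -0.45, against 0.32 over all miRNAs. In La vs. Lb 10 fell and 2 rose, where 13.4% of all miRNAs fell and 26.8% rose, with a median of -0.28 against 0.32. The median of the interaction was 0.06, against 0.09 over all miRNAs, and 7 of the 33 had an unadjusted p under 0.05 by edgeR, against 21.1% of all miRNAs. The largest falls among those of at least 10 TPM were those of ssc-miR-676-3p (-1.98) and ssc-miR-363 (-1.68) in the HZ boars and of ssc-miR-676-3p (-1.87) and ssc-miR-222 (-1.12) in the LC boars. The rises were those of ssc-miR-374a-5p (1.04) and ssc-miR-221-5p (0.87) in the HZ boars and of ssc-miR-421-3p (0.66) and ssc-miR-505 (0.33) in the LC boars.

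The germ cells of the boar testis enter meiosis between these ages, so miRNA markers of cell types were set beside the cluster. ssc-miR-34c, which is abundant in meiotic and haploid germ cells and was the only entry listed under the lettered names miR-34b, miR-34c and miR-449a to miR-449c, was between 19.0 and 62.0 TPM in Ha and between 12.5 and 20.2 TPM in La. It was at 1218, 1732 and 11014 TPM in Hb and at 11634, 10627 and 9330 TPM in Lb. The cluster summed to 3791, 2077 and 3561 TPM in the same Hb libraries and to 6603, 6196 and 7231 TPM in the same Lb libraries. The table also lists 6 miR-34 and miR-449 entries without a letter, which were added after their values were seen. The most abundant of them, miR-449-x, was at 2941, 813 and 2081 TPM in Hb and at 2147, 1602 and 1856 TPM in Lb, which overlap, and at 3.89 to 14.4 TPM at 30 days. The 6 entries summed to 6138, 1273 and 3780 TPM in Hb and to 3891, 3442 and 3279 TPM in Lb.

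The miR-202 entries went from a mean of 20075 to 14421 TPM in the HZ boars and from 16171 to 21504 TPM in the LC boars, without overlap of the ages in either breed. miR-143 and miR-145, which mark smooth muscle, went in sum from 29606 to 77358 TPM in the HZ boars and from 23834 to 61307 TPM in the LC boars. The leukocyte markers went from 1108 to 655 TPM and from 1405 to 1027 TPM, the erythroid markers from 1554 to 1396 and from 2290 to 1244 TPM, and miR-126 of the endothelium from 14563 to 11793 and from 12493 to 9691 TPM. The leukocyte markers and miR-126 were thus lower at 120 days without overlap of the ages in both breeds, as the summed cluster was in the HZ boars, while the erythroid markers overlapped in the HZ boars. The striated muscle markers went from 215 to 568 TPM in the HZ boars and from 152 to 757 TPM in the LC boars, without overlap. Those of epithelium (3 of 5 listed) were between 32.6 and 168 TPM and overlapped in both breeds. No listed marker was at 0 in all libraries. The part of these cell types in the differences of the cluster was not tested.

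**Figure D5:**
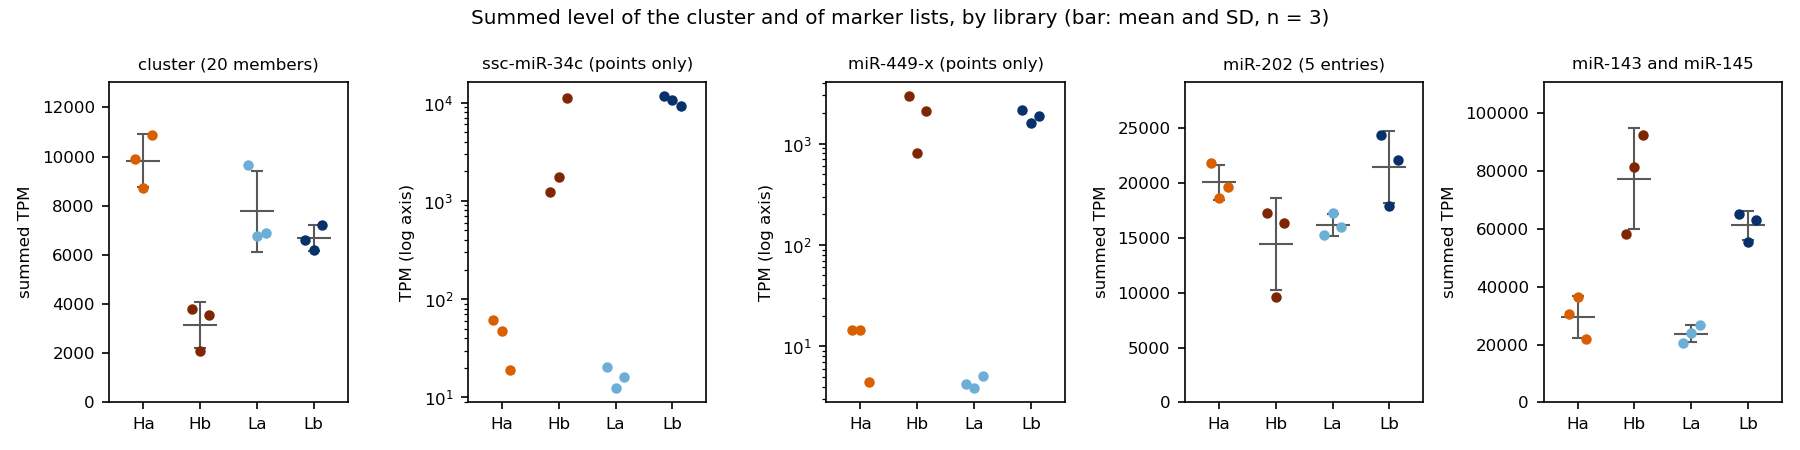
Summed level in TPM of the 20 members, of ssc-miR-34c and miR-449-x (log axes), of the 5 miR-202 entries and of miR-143 with miR-145, for the 3 libraries of each group (points), with mean and SD except on the log axes. The cluster is lowest in the 3 Hb libraries, at 3791, 2077 and 3561 TPM, while ssc-miR-34c, miR-449-x and the smooth muscle markers are higher at 120 days in both breeds.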

How the data were processed

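The miRNAs of 12 testis small RNA libraries were analysed, 3 per group of breed and age. Reads were cleaned by the authors with fastp. Tags from other small RNAs, or from exons, introns and repeats of Sscrofa11.1, were dropped. The remaining tags were identified in miRBase (bowtie), and miRDeep2 served for prediction and quantification. The deposited counts are raw tag counts per listed miRNA. The deposited TPM values were made by the authors from these counts and a library total, with 0.01 written for a count of 0. The authors' table of predicted hairpins gives lengths, positions, a miRDeep2 score and a GC percent, and only its positions and sequences were used here.

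Counts were tested with the quasi-likelihood test of edgeR 4.0.16 in R 4.3.3, with TMM scaling, separately for each pair of groups and as an interaction over the 12 libraries. A miRNA needed at least 1 count over the libraries compared. p-values were adjusted by Benjamini-Hochberg over all miRNAs tested, and called means an adjusted p under 0.05. The main rule of the study, an absolute log2 fold change above 1 with an unadjusted p under 0.05, is given beside it. The SE was taken from the log2 fold change and its F value. The fit was also run on simulated counts with known changes and the same spread in every group. This was a check of the code and does not give the error rate in these libraries.

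Members of at least 10 TPM were given by library. The miRNAs of closest profile were the 5 with the smallest root mean square difference from the summed members. X-linked miRNAs were found through the RefSeq table, and those named were the 2 largest rises and falls called in each age comparison. The members and lists were chosen with earlier results of these data known. The libraries differed from each other by more than sampling noise, so none was merged. Alternatives were RLE scaling, library size or the TPM total as library size, DESeq2 1.42.0, filterByExpr, robust estimation, a replicate block, merged sequences, 1 fit over all libraries, and leaving out each library. After the data were seen, the likeness with the member left out of the sum and the unlettered miR-34 and miR-449 entries were added. The sources used here do not name the edgeR test of the authors.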

Additional observations from a re-analysis of the deposited data

Results flagged for a closer look

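The difference of the age effects between LC and HZ boars passed the edgeR interaction test for 3 members of the cluster, and this is why they are listed here. It was 1.31 on the log2 scale for ssc-miR-450b-5p, 1.15 for ssc-miR-450c-5p and 0.988 for ssc-miR-450a. ssc-miR-450c-5p and ssc-miR-450a differ in their last base, so their values may share tags. The 5 miR-202 entries, the gonad marker, moved in opposite directions in the breeds without overlap of the ages, from 20075 to 14421 TPM in the HZ boars and from 16171 to 21504 TPM in the LC boars. They were lowest in Hb replicate 2 (9608 TPM), as the summed cluster was (2077 TPM). TPM does not take the TMM factor into account, which was also lowest in this library (0.694). Between the ages, the summed markers of smooth muscle, striated muscle and germ cells (higher at 120 days) and of leukocytes and endothelium (lower) did not overlap in either breed. The part of all these markers in these differences was not tested.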

How the results depend on the processing

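No member's call turned to the opposite direction under any alternative that was run. Over all members and comparisons, 1523 alternative values kept their side of the threshold (some uncalled values turned sign), 61 passed it newly and 62 no longer passed. Shares in brackets are those of all miRNAs called in the same direction in the same fit. In Ha vs. Hb, 10 of 11 members were called after merging members within 2 edits (12.6%), and leaving out a library gave 10 to 16 (8.26% to 14.7%). In La vs. Lb, 3 were called with library size only (9.13%), 3 of 11 after that merging (13.4%), and 4 to 6 without a library (9.68% to 16%). In Ha vs. La, 1 was called with library size only and 1 with the TPM total (8.29% each), and 0 to 1 without a library (3.86% to 11.9%). In Hb vs. Lb, 7 were called by DESeq2 (3.25%), 1 after filterByExpr (1.13%), 1 with identical sequences merged (1.07%), 10 in the fit over all 12 libraries (5.58%), and 0 to 3 without a library (0.278% to 4.43%). For the Age by breed interaction, 0 were called with library size only and 0 with the TPM total, where no other miRNA was called as positive either. DESeq2 called 10 (4.68%), 8 were called after filterByExpr (4.14%), and 0 to 11 without a library (0% to 6.61%). The cause of these changes was not tested. Set against the sum of the other members (chosen after seeing the data), ssc-miR-424-5p had 10 outside miRNAs closer instead of 5. The median difference between member profiles stayed between 0.254 and 0.297 when a library was left out.

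With the replicate block, 2 members were called in Hb vs. Lb (4.71%), 2 for the Age by breed interaction (0.758%), 16 in Ha vs. Hb (11%), none in Ha vs. La (6.73%) and 5 in La vs. Lb (13.3%). The deviations of libraries with the same number had r between -0.297 and 0.186, and those with different numbers between -0.297 and 0.262. With 3 libraries per group these values cannot settle whether libraries with the same number share anything more. The 9 members under 10 TPM rest on few counts, which limits the precision of their values, and no limit of detection was computed.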
